A study of Rattus norvegicus with 10 samples.

Results

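Transcripts of 7 genes of the sodium pump and its regulators were followed in hearts of 24-month and 6-month rats. They are Atp1b1 and Atp1b3, which encode beta subunits of the pump, and Fxyd1, Fxyd2, Fxyd3, Fxyd5 and Fxyd6, which encode small membrane proteins of the FXYD family. The members were taken by gene symbol from the platform annotation, as probe sets with that symbol alone, and made up 8 of 31042 probe sets and 7 of 14217 named genes. They were picked with the difference between the ages already known, so their own values for that contrast are a description and carry no test. The old group (Old) held 5 arrays of hearts of male Fischer-344 rats of 24 months, replicates 2 to 6, and the young group (Young) held 5 arrays of hearts of male Fischer-344 rats of 6 months, replicates 1, 2, 3, 4 and 6. Fischer-344 is an inbred laboratory strain. Rats of both ages were fed standard chow, and the labels name no other treatment. RNA of each heart was hybridised to a Rat Genome 230 2.0 array. The labels name whole hearts as the source while the series text names ventricles, and they do not say outright that each array is a separate rat, so errors measure the spread between these samples.

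The sodium pump is the membrane ATPase that carries sodium out of the cell and potassium in. Its alpha subunit does the transport and binds cardiac glycosides, its beta subunit carries the complex to the membrane, and an FXYD protein can join the pair and tune the affinity for sodium. In heart muscle the best known FXYD protein is phospholemman, the product of Fxyd1, which restrains the pump until protein kinase A or C phosphorylates it. Fxyd2 encodes the gamma subunit known from kidney tubules, Fxyd3 (also called Mat-8) is known from epithelia and tumours, Fxyd5 encodes dysadherin, a regulator of cell adhesion, and Fxyd6 encodes phosphohippolin, known from brain.

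Values are on the log2 scale relative to the median array of each probe set, so they compare arrays and give no level of a gene. By that centring the middle pair of arrays of a probe set are equal and opposite. The array medians lay between -0.0097 and 0.0038 in Old and between -0.0061 and 0.0093 in Young. A brightness class was inferred for each probe set from the numerical step of its values, as an approximation. All 11 measured cardiomyocyte markers were represented in the brightest class, as were Atp1b1, Atp1b3 and Fxyd1, while Fxyd2, Fxyd3, Fxyd5 and Fxyd6 were in the middle class. Young replicate 2 stood apart by its adipocyte marker score, the mean of 7 genes, which was 1.32, against -0.00 to 0.13 on the Old arrays and -0.23 to -0.02 on the other Young arrays. Old replicates 3 and 6 had the highest lymphocyte scores, 0.86 and 0.64, against 0.08 to 0.14 on the other Old arrays and -0.32 to 0.02 on the Young arrays. The differences of the 7 genes are given with and without these arrays.

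The 7 genes did not move one way. Fxyd3, Atp1b1 and Fxyd1 had lower means in Old, and Fxyd5, Fxyd2, Atp1b3 and Fxyd6 had higher means. By limma over all genes 6 of the 7 had an adjusted p under 0.05, where 11.9% of all genes did. Of these 3 were higher, where 6.77% of all genes were, and 3 lower, where 5.09% were. In 6 genes no Old array overlapped a Young array, as in 9.91% of all genes. This held for 3 genes that were higher and 3 that were lower in Old, against 5.13% and 4.78% of all genes. Of the 8 probe sets 5 passed in the fit over all probe sets, where 8.03% of all did (4.42% higher, 3.6% lower), and 6 did not overlap, where 7.32% of all did not (3.67% higher, 3.65% lower). Because the contrast was known when the genes were picked, nothing is read from these counts. The median difference was 0.30 over the 7 genes and -0.005 over all genes. In bulk tissue fewer cells of a type and less RNA per cell cannot be told apart.

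**Figure D1:**
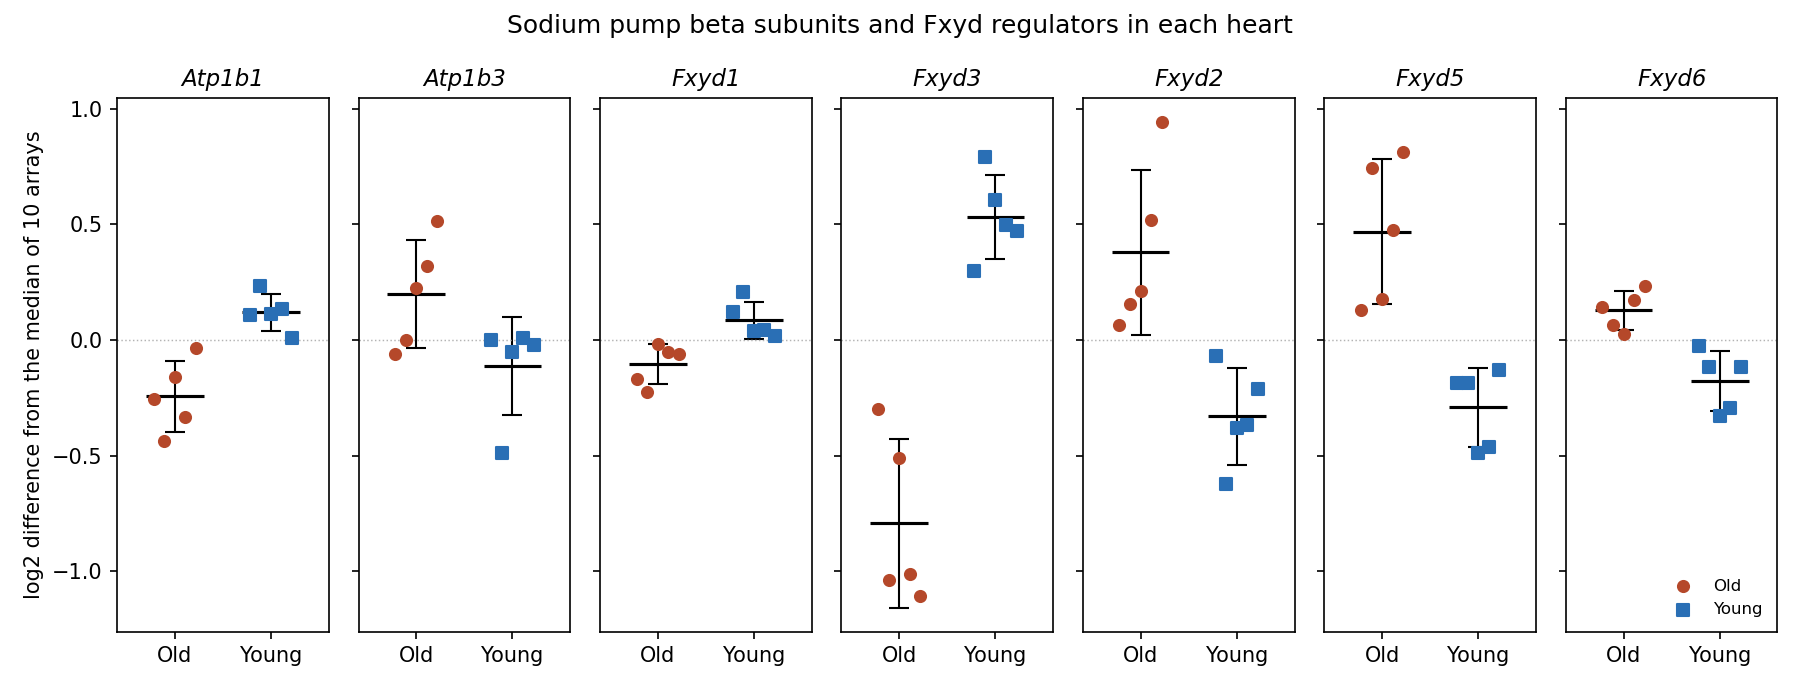
Values of the 7 genes on each array (vertical axis: log2 value relative to the median array), Old (circles) left of Young (squares), with the mean and SD of 5 arrays each. The ages are apart for every gene but Atp1b3, and the distance is widest for Fxyd3, at -0.79 in Old and 0.53 in Young.

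Of the beta subunits, which every pump needs to leave the endoplasmic reticulum, Atp1b1 had a lower mean in Old and Atp1b3 a higher mean, with overlapping arrays for Atp1b3. Atp1b1, which encodes the main beta subunit of heart muscle, had values of -0.25, -0.44, -0.16, -0.33 and -0.04 in Old replicates 2 to 6, against 0.11, 0.23, 0.11, 0.13 and 0.01 in Young replicates 1, 2, 3, 4 and 6. Every Old array lay below every Young array, with Old replicate 6 and Young replicate 6 the nearest pair. The mean was -0.24 ± 0.15 in Old and 0.12 ± 0.08 in Young (SD, n = 5 each), a difference of -0.36 ± 0.07 (SE) or -22.2%. Its 2 probe sets agreed in sign and not in size. Probe set 1367814_at gave -0.42, -0.59, -0.33, -0.45 and -0.03 in Old, against 0.17, 0.44, 0.21, 0.03 and 0.03 in Young. Probe set 1386937_at gave -0.08, -0.28, 0.01, -0.21 and -0.04 in Old, against 0.04, 0.03, 0.02, 0.23 and -0.01 in Young. The difference was -0.54 ± 0.10 (SE), with no overlap, by 1367814_at, and -0.18 ± 0.07 (SE), with Old replicate 4 inside the Young range, by 1386937_at. In the fit over all probe sets 1367814_at passed and 1386937_at did not.

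Atp1b3 encodes a beta subunit of wide tissue distribution. It had values of -0.06, -0.00, 0.22, 0.32 and 0.51 in Old replicates 2 to 6, against 0.00, -0.49, -0.05, 0.01 and -0.02 in Young replicates 1, 2, 3, 4 and 6. Old replicates 2 and 3 lay among the Young arrays, and Young replicate 2 lay far below the others. The mean was 0.20 ± 0.23 in Old and -0.11 ± 0.21 in Young (SD, n = 5 each), a difference of 0.31 ± 0.12 (SE). It was the gene of the 7 that did not pass the threshold. Without Young replicate 2 the difference was 0.22, and that of Atp1b1 was -0.33. Without Old replicates 3 and 6 they were 0.27 and -0.37.

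Fxyd3 was the gene with the lowest difference among all 14217 genes, while Fxyd1, the phospholemman gene of heart muscle that lies near it on the chromosome, was lower by a small amount. Fxyd3 had values of -0.30, -1.04, -0.51, -1.01 and -1.10 in Old replicates 2 to 6, against 0.30, 0.79, 0.60, 0.50 and 0.47 in Young replicates 1, 2, 3, 4 and 6. The Old arrays formed a low set of replicates 3, 5 and 6 and an intermediate set of replicates 2 and 4, all below the lowest Young array. The mean was -0.79 ± 0.36 in Old and 0.53 ± 0.18 in Young (SD, n = 5 each), a difference of -1.33 ± 0.15 (SE), so that the Old signal was 0.399 times the Young signal. The nearest arrays of the ages were Old replicate 2 at -0.30 and Young replicate 1 at 0.30. These values rest on the single Fxyd3 probe set, 1389360_at, so no second probe set could be set beside it. Cardiomyocyte marker scores were also lower on Old replicates 3, 5 and 6 (-0.23, -0.22 and -0.18) than on 2 and 4 (0.05 and -0.09). Lymphocyte, adipocyte, and smooth muscle and pericyte scores were higher on Old replicates 3, 5 and 6 than on 2 and 4. The part of these scores in the Fxyd3 difference was not tested.

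Fxyd1 had values of -0.17, -0.22, -0.02, -0.05 and -0.06 in Old replicates 2 to 6, against 0.12, 0.21, 0.04, 0.04 and 0.02 in Young replicates 1, 2, 3, 4 and 6. The ages did not overlap, but the nearest arrays lay close, Old replicate 4 at -0.02 and Young replicate 6 at 0.02. The mean was -0.10 ± 0.09 in Old and 0.09 ± 0.08 in Young (SD, n = 5 each), a difference of -0.19 ± 0.06 (SE) or -12.4%. This call lay near the threshold. It was lost without any 1 of Old replicates 2, 3, 5 and 6 and Young replicates 1, 2, 3, 4 and 6, where the difference ranged from -0.21 to -0.16, and its probe set, 1369960_at, did not pass in the fit over all probe sets. The Fxyd3 difference was 6.94 times that of Fxyd1 on the log2 scale, and the mean of Fxyd3 minus Fxyd1 differed by -1.13 between Old and Young. Without Young replicate 2, which had the highest value of both genes, the differences were -1.26 for Fxyd3 and -0.16 for Fxyd1. Without Old replicates 3 and 6 they were -1.14 and -0.17.

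**Figure D2:**
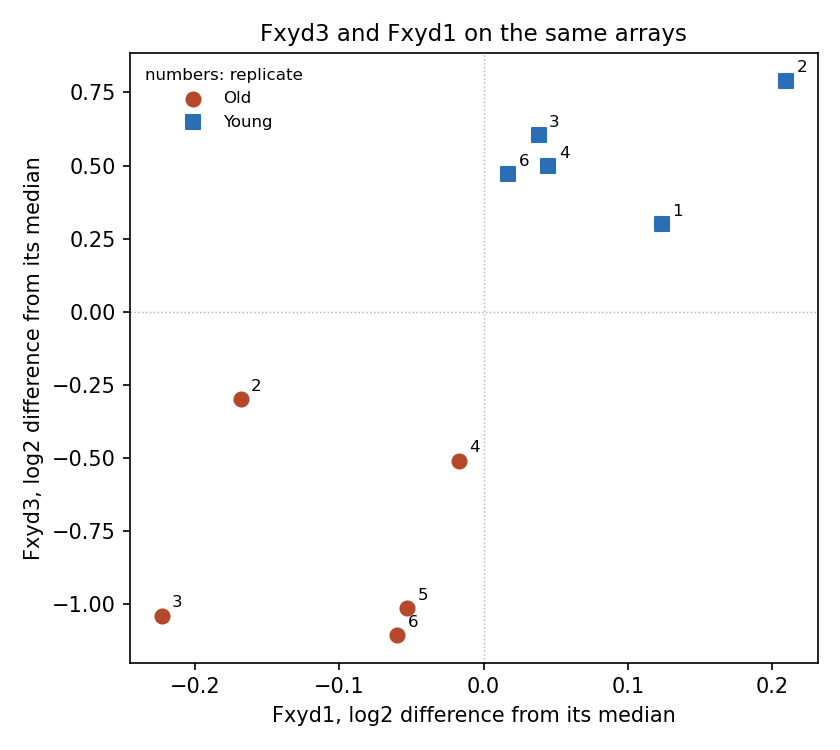
Fxyd3 (vertical axis) against Fxyd1 (horizontal axis), both as log2 values relative to their median arrays, on the 5 Old and 5 Young arrays, numbered by replicate. Old arrays fill the lower left and Young arrays the upper right, over a Fxyd3 range of -1.10 to 0.79 and a Fxyd1 range of -0.22 to 0.21.

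Fxyd5 had the highest difference of the 7 genes. Its values were 0.13, 0.74, 0.18, 0.48 and 0.81 in Old replicates 2 to 6, against -0.19, -0.19, -0.49, -0.46 and -0.13 in Young replicates 1, 2, 3, 4 and 6. All Old arrays lay above all Young arrays, with replicates 3 and 6 at the top and replicates 2 and 4 near the Young range. The mean was 0.47 ± 0.31 in Old and -0.29 ± 0.17 in Young (SD, n = 5 each), a difference of 0.76 ± 0.13 (SE), or 1.69-fold. The arrays with the highest Fxyd5 values, Old replicates 6 and 3, were those with the highest lymphocyte scores (0.64 and 0.86). They also had the highest erythroid scores (1.17 and 0.29). The part of the cells behind these scores in this difference was not tested. Without Old replicates 3 and 6 it was 0.55, and without Young replicate 2 it was 0.78.

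Fxyd2, the gene of the gamma subunit, had values of 0.07, 0.16, 0.21, 0.52 and 0.94 in Old replicates 2 to 6, against -0.07, -0.62, -0.38, -0.37 and -0.21 in Young replicates 1, 2, 3, 4 and 6. The ages did not overlap, and Old replicate 6 was the highest array. The mean was 0.38 ± 0.36 in Old and -0.33 ± 0.21 in Young (SD, n = 5 each), a difference of 0.71 ± 0.15 (SE), or 1.63-fold. The difference was 0.57 without Old replicate 6, 0.60 without Old replicates 3 and 6 and 0.64 without Young replicate 2, which was the lowest array. The macrophage marker score had its highest value, 0.99, on Old replicate 6 and its lowest, -0.40, on Young replicate 2. So did the atrial muscle score, at 0.50 and -0.60. The fibroblast and lymphocyte scores were also lowest on Young replicate 2, at -0.41 and -0.32. The part of these scores in the difference was not tested.

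Fxyd6, the phosphohippolin gene, had values of 0.14, 0.07, 0.02, 0.17 and 0.23 in Old replicates 2 to 6, against -0.02, -0.12, -0.33, -0.29 and -0.12 in Young replicates 1, 2, 3, 4 and 6. The Old arrays were closer together than the Young arrays, and Old replicate 4 and Young replicate 1 were 0.05 apart. The mean was 0.13 ± 0.08 in Old and -0.18 ± 0.13 in Young (SD, n = 5 each), a difference of 0.30 ± 0.07 (SE), or 1.23-fold. It was 0.32 without Young replicate 2 and 0.29 without Old replicates 3 and 6. The calls of Fxyd2, Fxyd3, Fxyd5 and Fxyd6 held without any 1 array, as did that of Atp1b1 by the mean of its 2 probe sets.

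The other measured genes of the pump and its family, chosen by role, were Atp1a4, Atp1b2, Atp1b4, Fxyd4 and Fxyd7. Of these 5, the Fxyd4 and Fxyd7 genes fell, where 5.09% of all genes did, and 3 did not pass the test. The median was -0.03 over the 5. Fxyd4, which encodes the channel-inducing factor of kidney and colon, had values of -0.02, -0.10, -0.22, -0.19 and -0.18 in Old replicates 2 to 6, against 0.03, 0.11, 0.02, 0.05 and 0.07 in Young replicates 1, 2, 3, 4 and 6. Every Old array lay below every Young array, and the difference was -0.20 ± 0.05 (SE, limma adjusted p = 0.0188). Fxyd7, a brain member of the family, had values of -0.37, 0.03, -0.13, -0.18 and -0.33 in Old replicates 2 to 6, against 0.06, 0.31, -0.03, 0.09 and 0.23 in Young replicates 1, 2, 3, 4 and 6. Old replicate 3 lay within the Young range, and the difference was -0.33 ± 0.08 (SE, limma adjusted p = 0.0261). The Fxyd4 call was lost without Old replicate 5 (limma adjusted p = 0.0538) and without Old replicates 3 and 6 (0.0608), and the Fxyd7 call without Old replicate 5 (0.0560), Old replicate 6 (0.0652), Young replicate 2 (0.0660) or Young replicate 6 (0.0596).

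The beta subunit gene Atp1b2, known from brain as an adhesion molecule on glia, gave -0.03 ± 0.06 (SE, limma adjusted p = 0.767), from probe sets at 0.04 and -0.10. Atp1b4, whose product in mammals is a nuclear membrane protein of muscle, gave 0.02 ± 0.06 (SE, limma adjusted p = 0.862). Atp1a4, the catalytic subunit gene of sperm, gave -0.01 ± 0.04 (SE, limma adjusted p = 0.879), and both of these were in the dimmest class. With these genes, 7 FXYD genes were measured. Of them 4 had lower and 3 had higher means in Old, so the family did not share a direction.

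**Figure D3:**
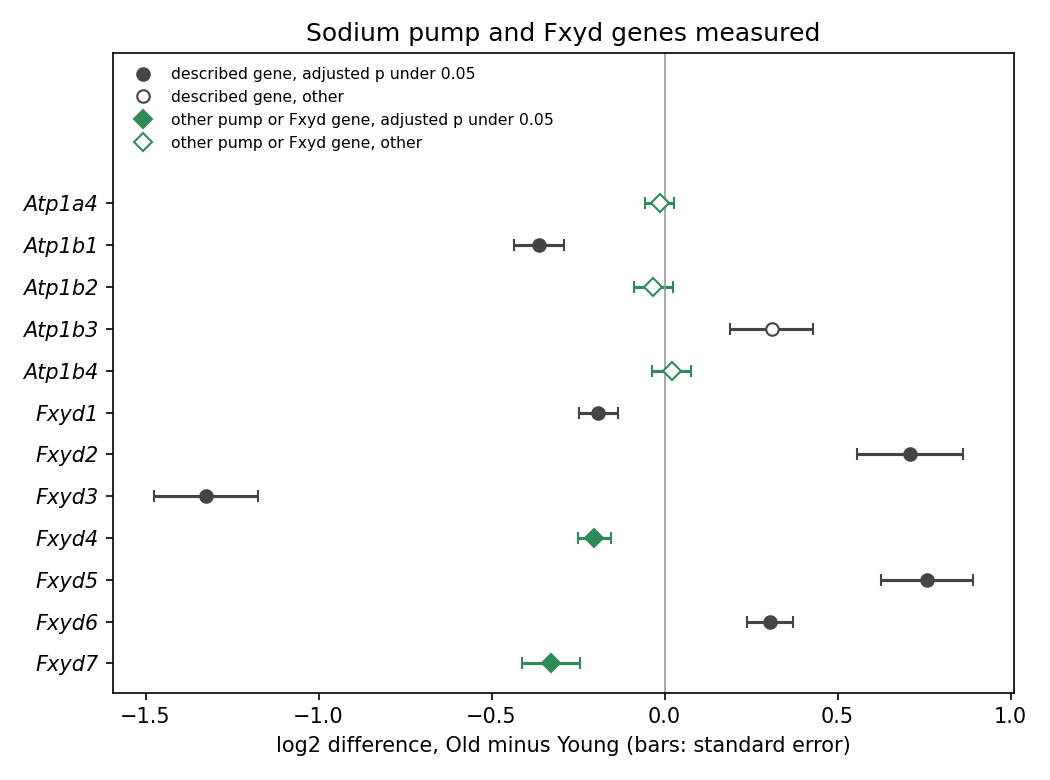
Log2 difference, Old minus Young, with its standard error, for the 12 measured sodium pump and FXYD genes. Filled symbols have an adjusted p under 0.05 over all genes, circles are the 7 described genes and diamonds the 5 others. Fxyd3 lies at -1.33 and Fxyd5 at 0.76.

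Position on the chromosome, which the choice of genes did not use, set most of the FXYD genes into 2 groups. In the RefSeq gene order of assembly GRCr8, Fxyd5, Fxyd7, Fxyd1, Lgi4 and Fxyd3 follow each other on chromosome 1, and Fxyd6 and Fxyd2 are neighbours on chromosome 8. The chromosome 1 group was mixed, with Fxyd5 higher by 0.76 and Fxyd7, Fxyd1 and Fxyd3 lower by -0.33, -0.19 and -1.33, while both genes of the chromosome 8 group were higher, by 0.30 and 0.71. Lgi4, which lies between Fxyd1 and Fxyd3 and encodes a secreted protein of nerve myelination, did not pass (0.07 ± 0.10 SE, limma adjusted p = 0.714). Among the genes other than FXYD within or up to 5 protein-coding genes beside each group, 1 of 6 measured on chromosome 1 passed. Over all genes 11.9% did. The gene that passed was Hamp, the gene of the iron hormone hepcidin, named after its values were seen. It rose (0.88 ± 0.15 SE, limma adjusted p = 0.00394), with values of 0.16 to 1.22 in Old and -0.44 to -0.16 in Young. On chromosome 8, 0 of 6 measured passed by limma, and 2 had an unadjusted p under 0.05. These windows were chosen after the values of the FXYD genes were known.

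**Figure D4:**
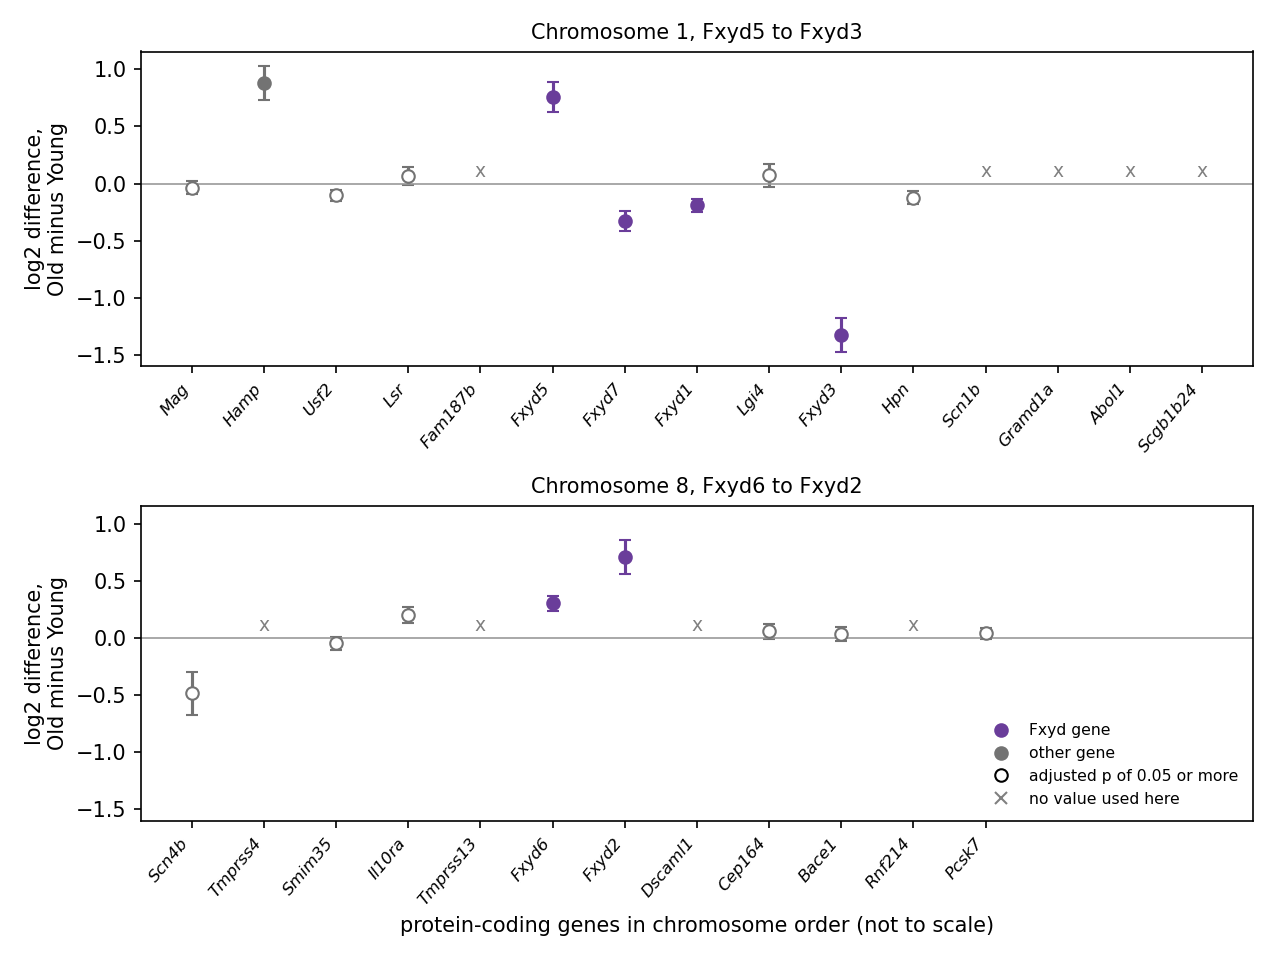
Log2 difference, Old minus Young, with its standard error, of the protein-coding genes around Fxyd5 to Fxyd3 on chromosome 1 and Fxyd6 to Fxyd2 on chromosome 8, in chromosome order. FXYD genes are purple, other genes grey, open symbols did not pass and crosses have no value used here. Of the other genes Hamp alone is filled, at 0.88.

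The bases upstream of an annotated start are shown for 4 members, to set Fxyd1, which was lower, beside Fxyd5 of the same group on chromosome 1 and the further genes Fxyd6 and Atp1b3, which had higher means. Sequences are from RefSeq, build GRCr8, the 250 bases before an annotated start, read 5′ to 3′ on the strand of the gene. Fxyd2, Fxyd3 and Atp1b1 are named only. Fxyd5 has 2 entries, of which the one at the annotated start of the gene is printed. The Atp1b3 window also lies at the annotated start of its gene. Those of Fxyd1 and Fxyd6 do not, so the counts below compare windows of unlike place. Capitals mark GC boxes (GGGCGG) and E boxes (CANNTG), searched on both strands.
Fxyd1, chr1:95418581-95418830, minus strand: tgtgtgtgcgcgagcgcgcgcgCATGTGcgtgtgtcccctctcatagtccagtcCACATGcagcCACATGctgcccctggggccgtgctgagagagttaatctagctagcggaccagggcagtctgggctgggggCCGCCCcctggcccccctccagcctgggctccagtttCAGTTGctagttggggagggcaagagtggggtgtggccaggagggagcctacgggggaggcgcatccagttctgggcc
Fxyd5, chr1:95404723-95404972, minus strand: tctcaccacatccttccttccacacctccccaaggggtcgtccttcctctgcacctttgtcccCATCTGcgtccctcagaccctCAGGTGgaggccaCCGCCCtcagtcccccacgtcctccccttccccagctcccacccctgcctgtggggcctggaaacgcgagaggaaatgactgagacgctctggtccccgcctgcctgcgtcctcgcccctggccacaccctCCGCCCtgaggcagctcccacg
Fxyd6, chr8:54575575-54575824, plus strand: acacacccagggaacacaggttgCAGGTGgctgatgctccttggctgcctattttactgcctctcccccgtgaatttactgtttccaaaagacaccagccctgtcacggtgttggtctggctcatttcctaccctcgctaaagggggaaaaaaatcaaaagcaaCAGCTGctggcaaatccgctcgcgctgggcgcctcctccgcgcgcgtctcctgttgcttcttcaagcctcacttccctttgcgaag
Atp1b3, chr8:105821152-105821401, minus strand: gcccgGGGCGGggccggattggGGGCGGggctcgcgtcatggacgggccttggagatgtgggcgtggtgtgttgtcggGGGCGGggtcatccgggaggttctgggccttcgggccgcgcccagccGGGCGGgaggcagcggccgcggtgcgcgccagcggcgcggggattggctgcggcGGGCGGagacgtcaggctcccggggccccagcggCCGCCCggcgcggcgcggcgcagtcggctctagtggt
Atp1b3 had 6 GC boxes, Fxyd5 had 2, Fxyd1 had 1 and Fxyd6 had 0, and 30.5% of all 33469 promoter entries held at least 1. E boxes numbered 4 in Fxyd1, 2 in Fxyd5, 2 in Fxyd6 and 0 in Atp1b3, where 65.5% of all entries held 1 or more. The GC content was 79.6% for Atp1b3, 67.2% for Fxyd5, 66.8% for Fxyd1 and 55.2% for Fxyd6, against a median of 51.2% over all entries. An AP-1 site (TGANTCA) and a TATA box (TATAAA), held by 6.34% and 12.9% of all entries, were not among the letters of these 4 windows. The other Fxyd5 entry, chr1:95404375-95404624, held 0 matches to any of the 4 motifs and had a GC content of 60.8%. The matches are a description of these letters alone.

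Hearts of one age also differed among themselves, and this variation was compared between the 7 genes over the 10 arrays after the mean of each age was subtracted. Neither age alone has the 6 arrays that a correlation needs. Of the 21 pairs, 1 passed after adjustment over the pairs, that of Fxyd2 and Atp1b3. Their Pearson r was 0.875 (exact permutation within age, two-sided p = 0.000556, adjusted 0.0117) and their Spearman rho was 0.927 (exact permutation p = 0.00201, adjusted 0.0423). Without the 2 arrays farthest from the Fxyd2 median, r was 0.874, and without Young replicate 2, the low array of both genes, it was 0.892. Fxyd2 and Atp1b3 both had their highest values on Old replicates 5 and 6. Both increased in order over Old replicates 2 to 6, as did the macrophage marker score (-0.00, 0.03, 0.40, 0.63 and 0.99). That score was also lowest on Young replicate 2, as were the fibroblast, lymphocyte and atrial muscle scores. The part of these scores in this correlation was not tested.

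Fxyd3 and Fxyd1 gave r = 0.118 (exact permutation p = 0.764, adjusted 0.903) and rho = 0.188 (exact permutation p = 0.633, adjusted 0.897), with r = 0.254 without the 2 arrays farthest from the Fxyd3 median. No common variation of the pair was detectable with 10 arrays. Fxyd3 with Fxyd2 (r = -0.74, exact permutation p = 0.0341) and with Fxyd5 (rho = -0.88, exact permutation p = 0.0139) gave negative values, and neither passed the adjustment (0.263 and 0.146). Fxyd1 and Atp1b1 gave r = 0.686 (exact permutation p = 0.0470, adjusted 0.263), which was 0.453 without the 2 farthest arrays. At an unadjusted p under 0.05 there were 3 pairs by r and 3 by rho.

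**Figure D5:**
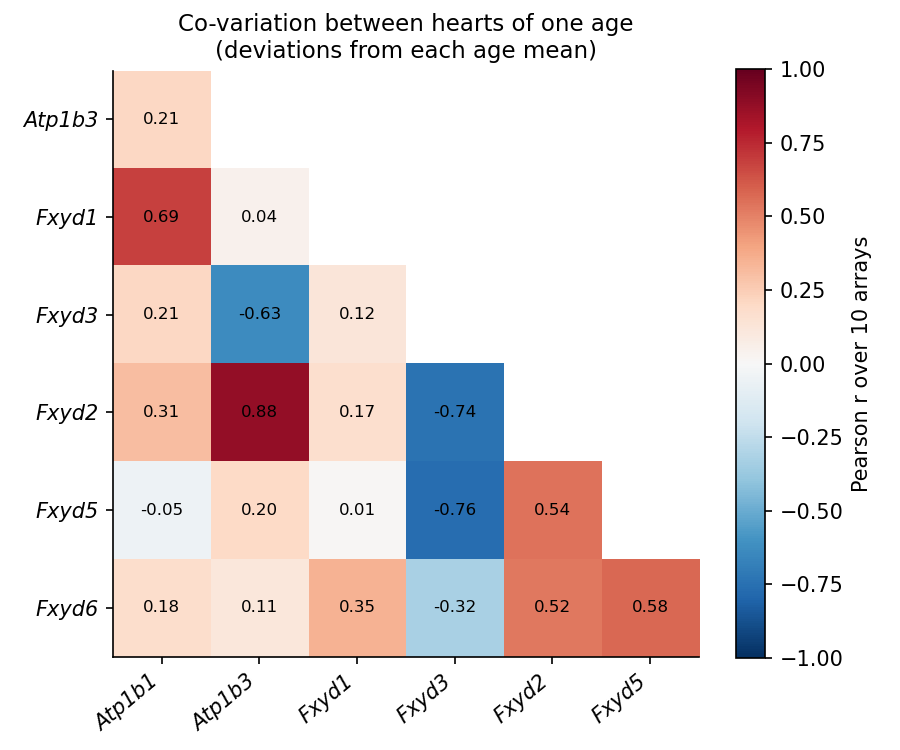
Pearson r over 10 arrays for each of the 21 pairs of the 7 genes, after subtraction of the mean of each age (red: positive, blue: negative). The pair of Fxyd2 and Atp1b3 has r = 0.875 and the pair of Fxyd3 and Fxyd1 has r = 0.118.

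Among 13081 other genes, leaving out those of the dimmest class, the 5 most like Fxyd3 in this variation within ages were Prkaca, Slc22a23, Zfp462, Kcnj11 and Sdk2, with r over 10 arrays of 0.949, 0.948, 0.947, 0.924 and 0.921. Prkaca encodes the catalytic subunit of protein kinase A and Kcnj11 a pore subunit of the ATP-sensitive potassium channel. Of these 5, Kcnj11 fell between the ages (-0.29 ± 0.07 SE, limma adjusted p = 0.0170) and Prkaca did not pass (-0.24 ± 0.08 SE, limma adjusted p = 0.0772). The 5 most like Fxyd1 were Vegfb, Prelp, Tp53i13, Lrrc18 and Zmynd10, with r of 0.975, 0.917, 0.910, 0.907 and 0.904. Vegfb, which encodes a vascular growth factor of muscle, did not pass between the ages (-0.25 ± 0.12 SE, limma adjusted p = 0.214). Prelp, a matrix proteoglycan gene, rose (0.38 ± 0.10 SE, limma adjusted p = 0.0235). The lists are ranked on these arrays and describe them.

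Partners are genes of other channels and transporters that carry sodium. Of 32 measured, 2 rose, 1 fell and 29 did not pass, where 6.77% of all genes rose and 5.09% fell. The median was -0.03, against -0.005 over all genes. The sodium-phosphate transporter gene Slc20a1 rose by 0.54 ± 0.11 (SE, limma adjusted p = 0.00775). The taurine transporter gene Slc6a6 rose by 0.50 ± 0.14 (SE, limma adjusted p = 0.0401), and the amino acid transporter gene Slc38a2 fell by 0.51 (limma adjusted p = 0.0259). Slc8a1, the cardiac sodium-calcium exchanger gene that uses the gradient made by the pump, gave -0.16 ± 0.06 (SE, limma adjusted p = 0.0991); it was named after its values were seen. The call of Slc38a2 was lost without Old replicate 5 or 6 or Young replicate 3 or 4 (limma adjusted p of 0.0559 to 0.0632) and that of Slc6a6 without Old replicate 5 or 6 or Young replicate 2, 3, 4 or 6 (0.0759 to 0.0900). Without Old replicates 3 and 6 neither passed, with Slc38a2 at -0.38 (limma adjusted p = 0.1295) and Slc6a6 at 0.30 (limma adjusted p = 0.0574). The count was 1 without Old replicate 5 or 6 or Young replicate 3 or 4.

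The list of pump regulators held genes of kinases, phosphatases, hormone receptors, scaffolds and others, not all of which act on the sodium pump itself. Of 43 measured, 3 rose, 5 fell and 35 did not pass, with a median of -0.03. Over all genes 6.77% rose and 5.09% fell. Ppp1r1a, the gene of phosphatase inhibitor 1, fell (-0.38 ± 0.06 SE, limma adjusted p = 0.00316), as did Cav3, the caveolin gene of muscle (-0.35 ± 0.06 SE, limma adjusted p = 0.00508). The thyroid hormone receptor genes Thrb and Thra fell by 0.33 and 0.15 (limma adjusted p of 0.0272 and 0.0325). Cib1, which encodes a calcium and integrin binding protein, rose by 0.36 (limma adjusted p = 0.0209), as did the kinase gene Sgk3 by 0.36 (limma adjusted p = 0.0265). The calls of Ppp1r1a and Cav3 held without any 1 array. That of Cib1 was lost without Young replicate 2 (limma adjusted p = 0.0521), that of Sgk3 without Old replicate 5 or 6 or Young replicate 2, 3 or 6 (0.0511 to 0.0688), that of Thrb without Old replicate 4, 5 or 6 or Young replicate 2, 3 or 4 (0.0513 to 0.0729) and that of Thra without Old replicate 2, 5 or 6 or Young replicate 2, 3 or 6 (0.0519 to 0.0783). Without Old replicates 3 and 6 the calls of Thrb (limma adjusted p = 0.0807) and Thra (0.09995) were lost. The count was 5 without Old replicate 4, 3 without Old replicate 5 or 6 or Young replicate 3, 4 without Young replicate 6 and 2 without Young replicate 2.

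Marker genes of several cell types differed between the same arrays. Over all genes 6.77% rose and 5.09% fell past the threshold. Mean marker scores did not overlap between the ages for fibroblasts (7 of 12 rose, 0.05 to 0.54 in Old and -0.41 to -0.03 in Young), macrophages (5 of 12 rose, -0.00 to 0.99 in Old and -0.40 to -0.02 in Young), lymphocytes (2 of 12 rose, 0.08 to 0.86 in Old and -0.32 to 0.02 in Young, with 5 of 12 lower in mean) and atrial muscle (2 of 7 rose, 0.16 to 0.50 in Old and -0.60 to -0.23 in Young). The lymphocyte score was led by the cytotoxic genes Gzma (1.98), Gzmb (1.46), Prf1 (1.40) and Nkg7 (1.11), of which Gzma and Gzmb passed. The B and T cell genes were mixed in direction and none passed. Ms4a1 (-0.24), Cd3d (-0.12), Cd79b (-0.10), Cd2 (-0.10) and Cd4 (-0.08) had lower means in Old. Cd8a (0.29), Cd3g (0.26) and Cd3e (0.02) had higher means. The atrial score was led by Nppa (2.69) and Myl7 (1.45), which passed. Its other genes differed by 0.11 (Kcnj3) to 0.26 (Myl4) and did not pass. These lymphocyte and atrial genes were named after their values were seen. The cardiomyocyte score ranged from -0.23 to 0.05 in Old and from -0.01 to 0.24 in Young, with 3 of 11 genes lower and 1 higher past the threshold. Endothelial markers had 2 of 11 that rose (0.01 to 0.25 in Old and -0.13 to 0.02 in Young). Smooth muscle and pericyte markers had 1 of 12 that rose and 1 that fell (-0.10 to 0.05 in Old and -0.10 to 0.10 in Young). For mesothelium and epithelium, where Fxyd3 is known, 1 of 11 markers rose (Krt18, named after its values were seen) and 0 fell by limma (score -0.07 to 0.07 in Old and -0.01 to 0.14 in Young), and 0 of the 11 reached the brightest class. Of these 11 markers 8 had lower means in Old, with a median of -0.05, among them Msln (-0.25), Lrrn4 (-0.20) and Krt19 (-0.19), which did not pass (limma adjusted p = 0.267, 0.128 and 0.121) and were also named after their values were seen. The adipocyte (7 genes), Schwann cell and neuron (8) and erythroid (4) lists had 0 genes past the threshold by limma. The Schwann cell and neuron score ranged from -0.07 to 0.08 in Old and from -0.02 to 0.18 in Young, and the erythroid score from -0.41 to 1.17 in Old and from -0.31 to 0.27 in Young. The table gives no level, so which markers are absent is not known, and the part of these cell types in the differences of the 7 genes was not tested.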

How the data were processed

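Total RNA of 10 hearts was amplified, biotin-labelled and hybridised, per the labels' protocols. The authors' deposited table holds 1 log2 value per probe set and array. The base of the logarithm is an inference from how finely the values are graded. The sources used here do not name the software, background correction or normalization. Each probe set has a median of 0 over the 10 arrays within 1e-06, so no level remains. Names came from the platform annotation, with symbols updated by identifier (GRCr8 gene table, 20758 of 20826 single-gene probe sets matched), and the probe sets of a gene were averaged. Genes and probe sets were fitted with limma 3.58.1 in R 4.3.3 (lmFit, eBayes, no covariate, Benjamini-Hochberg over the whole table) and the code was tested on simulated data. Python 3.11.15 ran the permutations, 14400 arrangements within ages. The members and lists were chosen with earlier results of these data known. Named were all members, all other pump and FXYD genes, up to 6 genes past the threshold per list and the 5 genes most like Fxyd3 and Fxyd1. Settings tried were median centring, quantile normalization, array weights, a robust prior, the median of probe sets, a filter on dim probe sets, a replicate block and leaving out arrays. For arrays, their number limits the precision. Each array was counted as 1 sample. The highest correlation between any pair was 0.570. Because each probe set is centred on its median over the arrays, that value cannot show whether the arrays are separate rats.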

Additional observations from a re-analysis of the deposited data

Results flagged for a closer look

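Each gene named by role and its probe sets were searched within each age for 1 array far from the other 4, by the gap to the nearest array over the whole range. Chance alone gives such an array in about 1 of 20 groups, and 5 were found in 72 groups. Atp1b3 had a value of -0.49 on Young replicate 2, where the other Young arrays lay between -0.05 and 0.01. Probe set 1386937_at of Atp1b1 had a value of 0.23 on Young replicate 4, with the others between -0.01 and 0.04. Slc6a6 had a value of 0.0477 on Young replicate 1, with the others between -0.26 and -0.19, and its probe set 1368778_at had a value of 1.08 on Old replicate 3, with the others between 0.01 and 0.22. Thra had a value of 0.16 on Young replicate 2, with the others between 0.04 and 0.07.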

How the results depend on the processing

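The direction of all 7 member genes held under every setting run. Fxyd2, Fxyd3, Fxyd5 and Fxyd6 kept their calls in all 16 planned settings, with Fxyd3 between -1.50 (quantile normalization) and -1.25. The Fxyd1 call was lost in 13 of 16, among them median centring (-0.18), quantile normalization (-0.18), array weights (-0.16) and the replicate block (-0.19). Atp1b3 passed with array weights (0.34). Leaving out 1 array gave 988 to 1994 genes called, against 1686 on all arrays (1003 without Old replicate 5, 1089 without Old replicate 6, 1047 without Young replicate 2 and 988 without Young replicate 3), and 1481 to 2943 probe sets, against 2492. It gave 5 to 6 members, 0 to 2 other pump genes, 1 to 4 partners and 2 to 9 regulators, and r of -0.12 to 0.46 for Fxyd3 with Fxyd1 and 0.840 to 0.909 for Fxyd2 with Atp1b3. With quantile normalization the r of Fxyd3 with Fxyd1 was -0.43 (exact permutation p = 0.235), and that of Fxyd2 with Atp1b3 was 0.797 (exact permutation p = 0.0223, not adjusted over the pairs; added after seeing the data). The numbers 2, 3, 4 and 6 occur in both ages. Correlations of deviations of same-numbered arrays were 0.0349, 0.0484, 0.145 and 0.0444. For Old replicates 4 and 6 the same-numbered Young array had the highest correlation of the Young arrays. For Old replicates 2 and 3 another Young array did. Same-numbered arrays were not taken as pairs in the main fit, and these values do not settle whether they are. With the replicate block, over 8 arrays, 1069 genes, 1640 probe sets, 4 members, 0 other pump genes (2 at an unadjusted p under 0.05, limma), 2 partners and 4 regulators passed, and the Atp1b1 call was lost (-0.34). In that fit the calls of Fxyd4, Fxyd7, Slc38a2, Sgk3, Thrb and Thra were also lost (limma adjusted p = 0.101, 0.1245, 0.122, 0.0893, 0.0560 and 0.179). The same 8 arrays without the block, added after seeing the data, gave 929, 1240, 5, 0 (2 unadjusted), 1 and 2. There the same calls were lost too (limma adjusted p = 0.0758, 0.0722, 0.0963, 0.0972, 0.0990 and 0.102), so their loss does not rest on the block. Slc6a6 (0.0751) and Cib1 (0.0572) did not pass without the block but did with it (limma adjusted p = 0.0473 and 0.0216). On these arrays the block lowered the SE of Fxyd2 (from 0.174 to 0.104), Fxyd3 (from 0.168 to 0.116), Fxyd5, Fxyd6 and Atp1b3. It raised that of Fxyd1 and Atp1b1. Without Old replicates 3 and 6, also added later, the counts were 1012 genes, 1526 probe sets, 5 members, 1 other pump gene, 1 partner and 5 regulators. These settings fit fewer arrays.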
